A study of Mus musculus with 12 samples.

Results

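The competition effect in irradiated hematopoietic stem cells was compared between genotypes on Illumina mouse bead arrays. Competition here means that a cell shared its bone marrow with cells of the other genotype. For each probe the interaction was the WT (mosaic) + IR value minus the WT + IR value, less the mp53 (mosaic) + IR value minus the mp53 + IR value, on the log2 scale. The 4 irradiated groups, chosen by their titles, had 2 arrays each, so the interaction used 8 of the 12 arrays of the series.

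The WT (mosaic) + IR arrays held wild-type, GFP-negative cells of R26-mp53 mosaic mice, which the labels call losers. The WT + IR arrays held cells of wild-type mice, labelled as under no competition. The mp53 (mosaic) + IR arrays held the GFP-positive cells of mosaic mice, which express mutant p53 and are labelled winners. The mp53 + IR arrays held cells of mice in which R26-mp53 was fully recombined, labelled as under no competition. All 4 groups had received 2.5 Gy, and marrow was taken 3 weeks later. Each array carried RNA of 200 cells sorted as lineage-negative, c-kit-positive, Sca-1-positive, CD48-negative and CD150-positive, amplified in 2 rounds. The sources used here do not give the Cre, the p53 mutation, or the strain, age and sex of the mice. Arrays of 1 group are labelled biological replicates, with nothing on whether separate mice were used, so p-values measure the spread between these samples. Because every mosaic sample also came from another kind of mouse than its non-mosaic counterpart, competition and kind of mouse cannot be told apart.

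p53 is a transcription factor that DNA damage activates. It induces genes of cell-cycle arrest, apoptosis and DNA repair, and its own inhibitor Mdm2. In cell competition, cells that are viable on their own are displaced by fitter neighbours, and in blood stem cells after irradiation the relative level of p53 activity has been linked to which cells are outcompeted. Hematopoietic stem cells are mostly quiescent, and genes such as Ndn, Cdkn1c, Fgd5 and Meis1 mark or maintain that state, whereas markers of granulocytes, monocytes, red cells and lymphocytes appear as progenitors differentiate.

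A positive interaction means that the mosaic-minus-non-mosaic difference was more positive in WT cells than in mp53 cells. It is therefore positive where the WT (mosaic) + IR and mp53 + IR arrays, which carry the weight +1, lie above the WT + IR and mp53 (mosaic) + IR arrays, which carry the weight -1. Levels below are normalized log2 intensities. Each gene is represented by its brightest kept probe, and each interaction is given with its standard error (SE) from limma over 2 arrays per group. The replicate number 1 and replicate number 2 values are the same contrast computed from the 4 arrays of each deposited table. Where a group was undetected on both arrays, a fold bound on the interaction of the group means is given. The bound allows for the detection limit and not for the spread between replicates, so the value of a single replicate number can be smaller.

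Several array properties moved with the weights. Sex-linked transcripts differed between the weights, for Eif2s3y and Xist more so in replicate 1. Eif2s3y, a translation factor gene on the Y chromosome, read 4.33 and 7.28 on the 2 WT (mosaic) + IR arrays, 9.88 and 9.13 on WT + IR, 9.21 and 8.29 on mp53 (mosaic) + IR, and 4.24 and 8.35 on mp53 + IR. Its interaction was -10.53 in replicate number 1 and -1.80 in replicate number 2. Xist, the RNA that silences an X chromosome, read 8.53 and 6.87, then 4.91 and 5.27, then 6.63 and 5.36, then 8.35 and 5.79 in the same order of groups, with interactions of 5.34 and 2.04. The array brightness, taken as the 95th percentile of the raw intensity, was 107 and 171 on WT (mosaic) + IR, 244 and 225 on WT + IR, 258 and 1079 on mp53 (mosaic) + IR, and 216 and 482 on mp53 + IR. In log2 the brightness itself had an interaction of -1.45 in replicate number 1 and -1.56 in replicate number 2. Between 9975 and 13489 of 46632 probes were detected per array. With brightness as a covariate in the fit, 78 of 79 named genes kept the sign of their interaction, all but Ccng1. Kdm5d, also on the Y chromosome, was undetected on the arrays weighted +1 and detected on those weighted -1, in both replicates. Its bound was at least 1.82-fold lower (fitted -1.78 and -1.75), so it was not smaller in replicate number 2. Uty, another Y-linked gene, lay between 4.56 and 5.18 on the 8 arrays, with overlap of the weights. The part of the sex-linked difference in the results below was not tested. Replicate number 2 values, where it was smaller for Eif2s3y and Xist, are given beside those of replicate number 1.

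**Figure D1:**
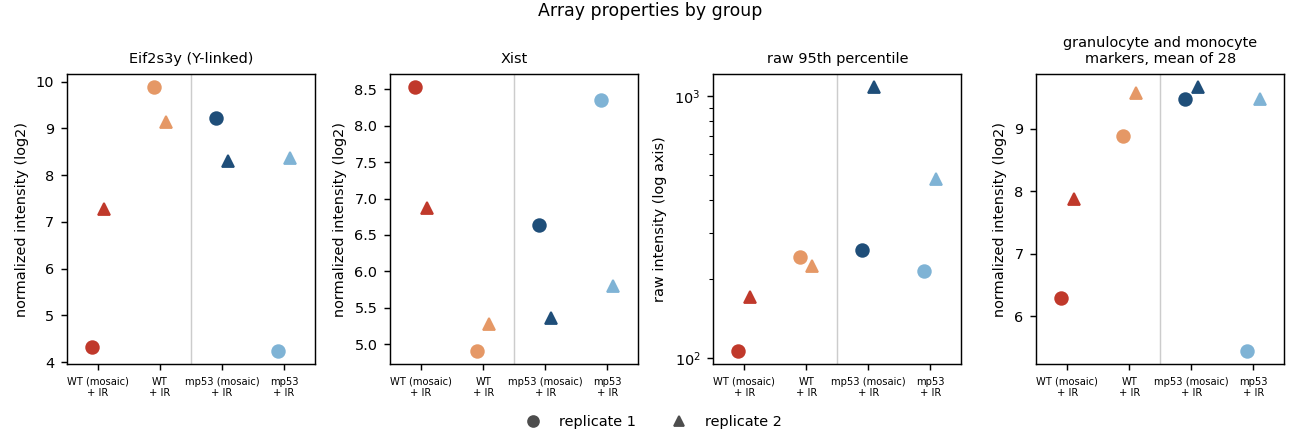
Normalized log2 intensity of Eif2s3y and Xist, raw brightness (95th percentile of the deposited intensity, log axis) and the mean normalized log2 intensity of 28 granulocyte and monocyte markers on the 8 arrays of the 4 irradiated groups, with circles for replicate 1 and triangles for replicate 2. In replicate 1 Eif2s3y lay at 4.33 on WT (mosaic) + IR and 4.24 on mp53 + IR, against 9.88 on WT + IR and 9.21 on mp53 (mosaic) + IR.

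Trp53 itself and Ly6a, which encodes Sca-1, were not analysed here, and Cdkn1a did not pass the filter on detection, so neither the mutant p53 nor the best-known p53 target checks the labels. Kit, the c-kit receptor used in the sort, was detected on all 8 arrays, with 6.61 and 7.83 on WT (mosaic) + IR, 7.94 and 6.17 on WT + IR, 5.72 and 6.13 on mp53 (mosaic) + IR, and 7.34 and 6.38 on mp53 + IR. Its interaction was 1.10 (SE 0.96; 0.28 and 1.91 in replicate numbers 1 and 2). Slamf1, which encodes CD150, was detected on 1 of the 8 arrays, a WT (mosaic) + IR array.

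Over all 13512 probes kept, limma called 0 interactions (0%) at a Benjamini-Hochberg adjusted p under 0.05, and the smallest adjusted p was 0.609. At an unadjusted p under 0.05 there were 461 positive (3.41%) and 562 negative (4.16%) probes, 1023 in all against 675.6 that this threshold alone would give. Scaling each array to its median in place of quantile normalization turned that split into 14 positive and 778 negative probes. By size, 779 probes (5.77%) were above 1 log2 in both replicate numbers and 956 (7.08%) were below -1 in both. Across probes the replicate number values had a Pearson r of 0.561 and a Spearman rho of 0.544, as a description over 13512 probes that share the 8 arrays, and 70.9% of probes had the same sign. The median interaction over the 8374 genes was 0.11, and the median SE over probes was 0.69, with 2 arrays per group. Arrays of the same group correlated at 0.756 to 0.918. For arrays of different groups with the same replicate number the median correlation was 0.922. What set the size of the SE was not tested. With 0 adjusted calls, the genes below are described by their values and replicate agreement. None of them passed the adjusted threshold.

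**Figure D2:**
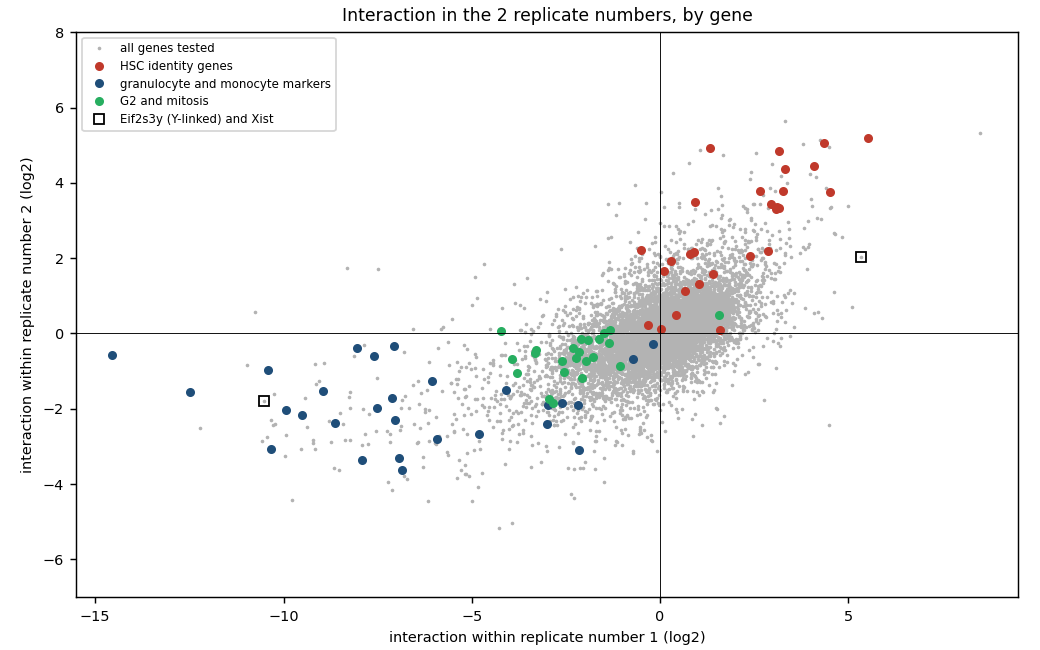
Interaction within replicate number 1 (x axis) against replicate number 2 (y axis), both in log2, for 8374 genes, with 3 lists and the sex-linked genes Eif2s3y and Xist marked. HSC identity genes lie to the upper right (medians 1.99 and 2.76), and granulocyte and monocyte markers to the lower left, with a wider spread in replicate number 1 (median -7.06) than in replicate number 2 (median -1.91).

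Genes of stem cell identity had mostly positive interactions. The detection filter kept 28 of 37 list members on the array, and a member kept through 1 group had to be high there. Of these 28, 27 were positive in the fitted value, where 54.6% of all genes were positive, and 26 were positive in both replicate numbers, where 39.8% of all genes were. The median was 2.38 (1.99 in replicate number 1 and 2.76 in replicate number 2), against 0.11 over all genes. At an unadjusted limma p under 0.05, 15 members (53.6%) were positive and 0 negative, where 3.9% of all genes were positive and 4.57% negative, and 17 exceeded 1 log2 in both replicate numbers, as 6.52% of all genes did. Runx1, a transcription factor of blood formation, was the member with a negative fitted value, at -0.04. The list's median was 1.25 with median scaling, under which the median of all genes was -0.83, 2.24 with brightness as a covariate and 1.46 with no filter on dim probes. The mean level of the 28 members was 7.82 and 8.07 on WT (mosaic) + IR, 7.59 and 6.54 on WT + IR, 6.20 and 5.80 on mp53 (mosaic) + IR, and 8.01 and 6.997 on mp53 + IR, so WT + IR replicate 1 lay among the arrays weighted +1. Granulocyte and monocyte markers ran the opposite way on the same arrays, as given further on, and their part in this result was not tested.

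Ndn, or necdin, a growth-suppressing protein known to restrain stem cell cycling, had the smallest p of all genes. It read 10.36 and 10.16 on WT (mosaic) + IR, 9.33 and 7.98 on WT + IR, 5.51 and 5.69 on mp53 (mosaic) + IR, and 9.99 and 8.70 on mp53 + IR. The mp53 (mosaic) + IR arrays were the lowest of the 8 and the WT (mosaic) + IR arrays the highest. The interaction was 5.36 (SE 0.79, 95% interval 3.57 to 7.15; 5.52 and 5.20 in replicate numbers 1 and 2, limma adjusted p = 0.609).

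Cdkn1c encodes p57, a cyclin-dependent kinase inhibitor that holds stem cells in quiescence. Its levels were 9.86 and 10.18 on WT (mosaic) + IR, 8.67 and 7.53 on WT + IR, 6.45 and 6.81 on mp53 (mosaic) + IR, and 9.78 and 7.92 on mp53 + IR, and its interaction was 4.14 (SE 1.03; 4.52 and 3.75). Fgd5, a guanine nucleotide exchange factor whose locus marks mouse stem cells, read 7.29 and 8.03, then 7.12 and 5.97, then 4.78 and 4.71, then 7.27 and 6.44 on WT (mosaic) + IR, WT + IR, mp53 (mosaic) + IR and mp53 + IR, with an interaction of 3.22 (SE 0.85; 2.66 and 3.78). For both genes the mp53 (mosaic) + IR arrays were the lowest 2 of the 8, while WT + IR replicate 1 lay within the range of the arrays weighted +1.

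The transcription factors of the list included Meis1 and the homeobox genes. Meis1, a cofactor of Hox proteins, had an interaction of 3.25 (SE 1.06; 3.16 and 3.33). Nkx2-3, a homeobox gene, had 4.71 (SE 1.19; 4.35 and 5.07), and Hoxa5 had 3.84 (SE 1.01; 3.32 and 4.37). Hoxa7 read 8.23 and 9.55 on WT (mosaic) + IR, 7.53 and 6.62 on WT + IR, 6.04 and 6.35 on mp53 (mosaic) + IR, and 8.49 and 8.26 on mp53 + IR, with no overlap between the arrays weighted +1 and those weighted -1, as held for 2.3% of all genes in that direction. Its interaction was 3.99 (SE 0.89; 3.15 and 4.84), but its dimmer probe gave 1.07 with -0.67 in replicate number 1.

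Several of the genes measured are shared by stem cells and blood vessel endothelium. Robo4, a receptor of the roundabout family, had an interaction of 4.27 (SE 1.02; 4.10 and 4.44). Esam, an adhesion molecule of cell junctions, read 7.99 and 7.95 on WT (mosaic) + IR, 7.02 and 6.01 on WT + IR, 5.91 and 4.34 on mp53 (mosaic) + IR, and 8.21 and 6.18 on mp53 + IR, with an interaction of 3.52 (SE 1.02; 3.28 and 3.77). Vwf, the adhesive glycoprotein of platelets and endothelium, had 3.19 (SE 0.88; 3.07 and 3.31). Emcn, a sialomucin of endothelium and stem cells that is not on the stem cell list, had 2.94 (SE 1.00; 3.16 and 2.71). Values were smaller for 2 other stem cell list members. Clec1a had 0.45 (SE 0.72; 0.41 and 0.49), and Tek, undetected in groups of both weights, had a fitted 0.08 (0.03 and 0.13). Over the whole list of 10 stromal and endothelial markers measured, 7 were positive and 3 negative, beside 54.6% and 45.4% of all genes. Their median was 0.26 (0.32 and 0.25). Among the negative members was Vcam1, a vascular cell adhesion molecule, at -5.57 (SE 2.34; -9.44 and -1.70) by its brightest probe. Its arrays weighted +1 lay below those weighted -1, as in 1.52% of all genes. The other kept probes of Vcam1 gave 0.21, -1.59 and -1.05.

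**Figure D3:**
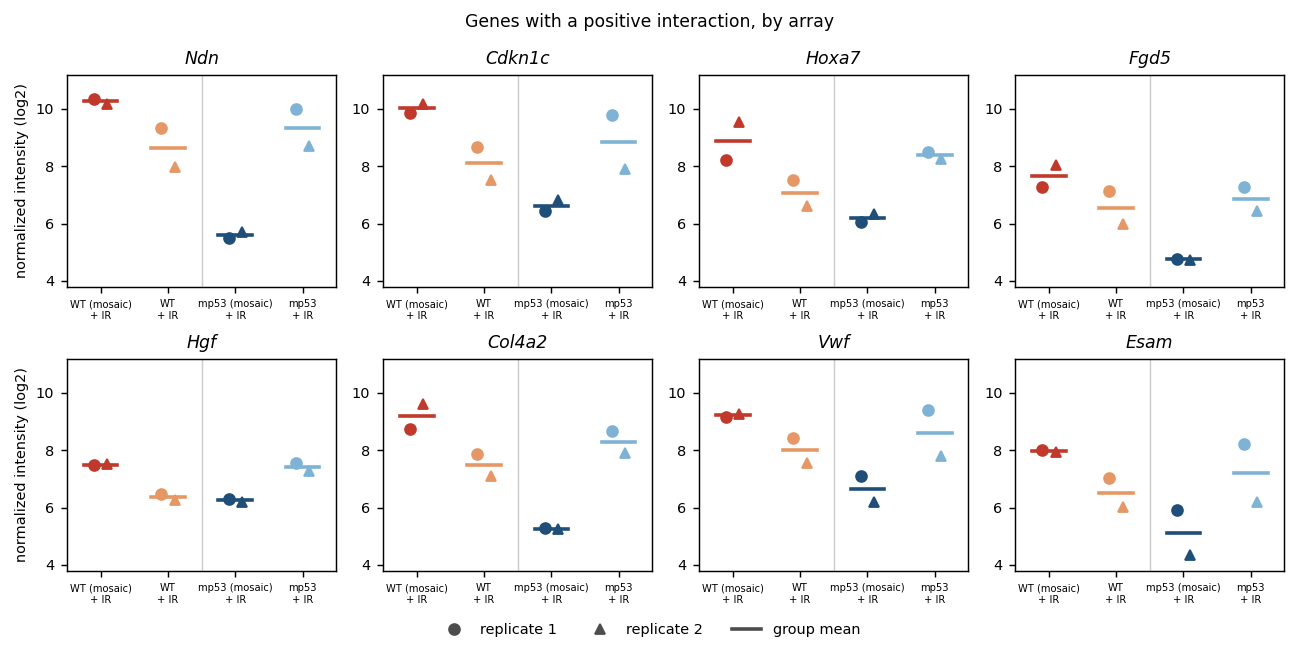
Normalized log2 intensity of 8 genes with a positive interaction on the arrays of the 4 irradiated groups, with circles for replicate 1, triangles for replicate 2 and bars for group means. For Ndn the group mp53 (mosaic) + IR lay at 5.51 and 5.69, below the 6 other arrays.

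Outside that list, the genes with the smallest p were of mixed function. Hgf, the ligand of the Met receptor, read 7.48 and 7.53 on WT (mosaic) + IR, 6.49 and 6.25 on WT + IR, 6.30 and 6.20 on mp53 (mosaic) + IR, and 7.56 and 7.29 on mp53 + IR. Its arrays weighted +1 and -1 did not overlap, and its interaction was 2.31 (SE 0.43; 2.25 and 2.37). Rbms2, an RNA-binding protein, had 2.98 (SE 0.66; 3.44 and 2.53), Rhbdd2, a rhomboid-domain protein, 2.38 (SE 0.53; 2.27 and 2.48), and Plpp2, a lipid phosphate phosphatase, 2.69 (SE 0.62; 2.91 and 2.48), all 3 also without overlap. Wfdc2, a secreted protein of the whey acidic family, had 4.48 (SE 1.02; 3.32 and 5.64), and Haghl, a homolog of hydroxyacylglutathione hydrolase, had 2.08 (SE 0.44; 1.90 and 2.26), both with overlap. Khnyn, a protein with an endonuclease-like domain, had 3.31 (SE 0.61; 3.83 and 2.79) by its brightest probe, whereas its other 2 kept probes gave 1.24 and -0.22.

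Col4a2 was among the genes with the smallest p, and Col4a1 and Col16a1 among those with the largest bounds. Col4a1 and Col4a2 encode the alpha-1 and alpha-2 chains that assemble into the type IV collagen of basement membranes. Col4a2 read 8.74 and 9.62 on WT (mosaic) + IR, 7.88 and 7.11 on WT + IR, 5.27 and 5.27 on mp53 (mosaic) + IR, and 8.67 and 7.91 on mp53 + IR. Its arrays weighted +1 lay just above those weighted -1, and its interaction was 4.70 (SE 1.10; 4.26 and 5.14). Col4a1 read 5.91 and 7.06 on WT (mosaic) + IR, 5.99 and 4.37 on WT + IR, 4.33 and 4.29 on mp53 (mosaic) + IR, and 6.96 and 6.39 on mp53 + IR. It was not detected on either mp53 (mosaic) + IR array or on WT + IR replicate 2, so its interaction is a bound, at least 8.82-fold on the linear scale (fitted 2.54 and 4.79 in replicate numbers 1 and 2, limma adjusted p = 0.609). Col16a1, a collagen of the fibril-associated class, was undetected on the mp53 (mosaic) + IR arrays only, with a bound of at least 7.61-fold. The fitted Col16a1 value was 1.07 in replicate number 1 and 4.88 in replicate number 2.

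Col4a1 and Col4a2 lie head to head on mouse chromosome 8, transcribed in opposite directions, which is why both start regions are shown. Each window holds 300 bases around a RefSeq start in GRCm38.p6, most of them upstream, at chr8:11312777-11313076 on the minus strand for Col4a1 and chr8:11312555-11312854 on the plus strand for Col4a2. Capitals mark the 78 bases, chr8:11312777-11312854, that both windows share, each read 5′ to 3′ on its gene's own strand.
Col4a1: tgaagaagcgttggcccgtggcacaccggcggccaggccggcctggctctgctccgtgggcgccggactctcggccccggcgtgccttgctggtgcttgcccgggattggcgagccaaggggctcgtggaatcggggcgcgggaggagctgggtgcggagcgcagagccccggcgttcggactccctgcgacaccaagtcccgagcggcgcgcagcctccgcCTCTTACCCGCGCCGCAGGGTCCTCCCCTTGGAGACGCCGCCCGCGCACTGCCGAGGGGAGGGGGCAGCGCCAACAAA
Col4a2: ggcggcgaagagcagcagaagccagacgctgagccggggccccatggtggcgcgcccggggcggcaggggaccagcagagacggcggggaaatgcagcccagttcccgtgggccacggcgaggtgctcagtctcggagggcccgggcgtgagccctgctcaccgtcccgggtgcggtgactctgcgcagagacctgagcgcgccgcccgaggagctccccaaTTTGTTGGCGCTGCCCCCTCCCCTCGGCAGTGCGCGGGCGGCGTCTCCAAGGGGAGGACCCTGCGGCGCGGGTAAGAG
The windows are rich in G and C, at 74.0% for Col4a1 and 73.7% for Col4a2. Searched on both strands, the GC box letters GGGCGG occurred 1 time in the Col4a1 window and 3 times in the Col4a2 window, of which 1 lay in the shared stretch, and 35.7% of 32851 mouse windows of this length hold them. The CCAAT letters occurred 1 time in each window and 0 times in the shared stretch, where 37.4% of windows hold them. The TATAAA letters occurred in neither, where 13.6% of windows hold them.

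Other genes undetected on both mp53 (mosaic) + IR arrays had bounds in the same direction. Tle2, a Groucho-family corepressor, read 6.55 and 7.51 on WT (mosaic) + IR, 4.89 and 4.82 on WT + IR, 4.47 and 4.39 on mp53 (mosaic) + IR, and 6.03 and 5.89 on mp53 + IR, a bound of at least 11.4-fold without overlap of the weights (fitted 3.21 and 4.19 in replicate numbers 1 and 2). Tceal5, an elongation factor A-like gene on the X chromosome, had a bound of at least 10.6-fold, with overlap (fitted 4.03 and 3.37). Tceal5 was also undetected on WT + IR replicate 2.

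Genes of ribosome biogenesis were mostly positive, with a sign that turned with median scaling. Of 19 measured Myc targets and ribosome biogenesis genes, 18 were positive in the fitted value, beside 54.6% of all genes. The median was 0.92 (1.17 and 0.67), which became -0.54 with median scaling. Gar1, a component of small nucleolar ribonucleoproteins, had 1.27 (SE 0.46; 1.78 and 0.76; -0.32 with median scaling). Nolc1, a nucleolar phosphoprotein, had 1.68 (SE 0.64; 1.92 and 1.45), and 0.17 with median scaling, while its dimmer probe gave -0.27 (-0.56 and 0.02). The list's median was 0.53 without mp53 + IR replicate 1 and 0.38 with no filter on dim probes. The 48 cytosolic ribosomal protein genes had a median of 0.45 (0.61 and 0.35), and -0.58 with median scaling. Of these 48, 46 were positive, beside 54.6% of all genes.

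Genes of G2 phase and mitosis were mostly negative. Of 23 measured members, 22 had a negative fitted value, where 45.4% of all genes did, and 19 were negative in both replicate numbers, where 32.2% of all genes were. The median was -1.35, with -2.16 in replicate number 1 and -0.52 in replicate number 2. At an unadjusted p under 0.05, 2 members (8.7%) were negative and 0 positive, beside 4.57% of all genes negative, and 5 were below -1 in both replicate numbers, beside 7.99% of all genes. The median was -0.54 with brightness as a covariate and -0.78 without mp53 + IR replicate 1. Bub1, a spindle checkpoint kinase, was the positive member, at 1.03.

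Tacc3, which stabilises spindle microtubules, read 5.18 and 5.68 on WT (mosaic) + IR, 7.27 and 6.61 on WT + IR, 7.35 and 7.21 on mp53 (mosaic) + IR, and 6.61 and 6.30 on mp53 + IR. Its interaction was -2.34 (SE 0.55; -2.83 and -1.84). Aurkb, the Aurora kinase of the chromosomal passenger complex, was undetected on both WT (mosaic) + IR arrays and had a bound of at least 2.27-fold lower (fitted -2.07 and -1.19). Plk4, the kinase that starts centriole duplication, read 6.16 and 6.58 on WT (mosaic) + IR, 8.38 and 7.49 on WT + IR, 8.22 and 7.89 on mp53 (mosaic) + IR, and 6.61 and 6.76 on mp53 + IR. The Plk4 arrays weighted +1 lay below all arrays weighted -1, as in 1.52% of all genes, and its interaction was -2.94 (SE 0.69; -3.83 and -2.05). Ncapg2, a subunit of condensin II, had -2.67 (SE 0.67; -3.72 and -1.63), also without overlap.

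The 21 measured S phase genes had a smaller median of -0.35 (-0.58 and -0.12), with 16 negative, beside 45.4% of all genes. Past an unadjusted limma p of 0.05 there were 0 in either direction. The median was -0.14 without mp53 + IR replicate 1 and -0.17 with brightness as a covariate. Cdc6, a licensing factor of replication origins, had -0.79 (SE 0.44; -1.28 and -0.31), and Rrm2, a ribonucleotide reductase subunit, had -2.41 (SE 1.33; -3.62 and -1.20). Among 9 measured cyclin-dependent kinase inhibitors and senescence genes the signs were mixed, with 3 positive and 6 negative, beside 54.6% and 45.4% of all genes. Besides Cdkn1c, Glb1, the lysosomal beta-galactosidase, had 1.72 (SE 0.42; 1.65 and 1.79), while Cdkn2c, which encodes the inhibitor p18, had -1.54 (SE 0.58; -1.85 and -1.23).

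Other genes with the smallest p on the negative side were Lima1, Rassf3, Cpeb4, Pxmp2, Bhlhe40 and Rnf11. Lima1, an actin-binding protein, read 5.92 and 6.28 on WT (mosaic) + IR, 7.46 and 7.64 on WT + IR, 7.38 and 7.35 on mp53 (mosaic) + IR, and 6.46 and 6.86 on mp53 + IR, an interaction of -2.16 (SE 0.45; -2.46 and -1.86) without overlap. Rassf3, a Ras-association domain protein, had -3.49 (SE 0.75; -4.19 and -2.80), and Cpeb4, which binds cytoplasmic polyadenylation elements, had -3.07 (SE 0.79; -3.01 and -3.12), both without overlap. Those with overlap were Pxmp2, a peroxisomal membrane protein, at -2.01 (SE 0.51; -1.17 and -2.85), Bhlhe40, a transcriptional repressor, at -1.95 (SE 0.52; -3.02 and -0.89), and Rnf11, a RING-finger protein, at -2.23 (SE 0.54; -2.93 and -1.53). The second kept probe of Rnf11 gave 0.89 (1.97 and -0.18).

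**Figure D4:**
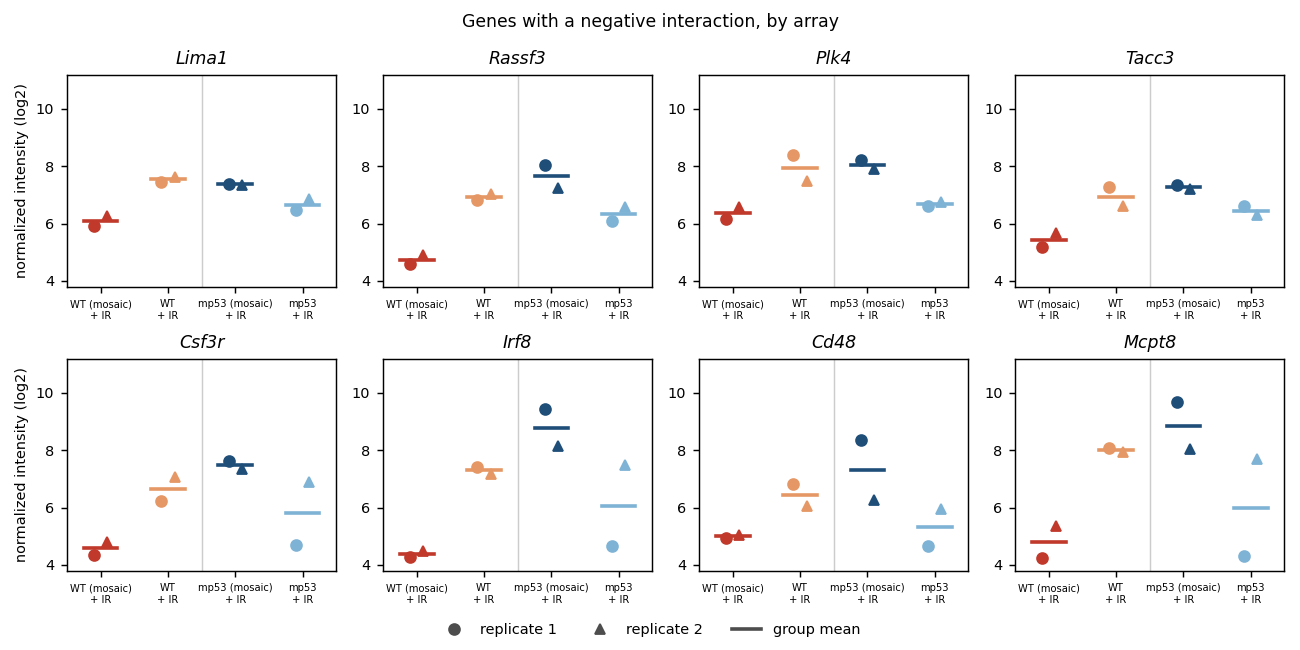
Normalized log2 intensity of 8 genes with a negative interaction on the arrays of the 4 irradiated groups, with circles for replicate 1, triangles for replicate 2 and bars for group means. For Csf3r, Irf8 and Mcpt8 the 2 mp53 + IR arrays differed from each other by more than 2 log2. For Lima1, Rassf3, Plk4, Cd48 and Mcpt8 the arrays weighted +1 lay below all arrays weighted -1, as in 1.52% of all genes.

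Granulocyte and monocyte markers had the lowest median of the 27 lists. The filter kept 28 of 31 members on the array. These 28 were all negative in both replicate numbers, where 32.2% of all genes were, with a median of -4.39. The size differed by replicate number, at -7.06 for number 1 and -1.91 for number 2. At an unadjusted limma p under 0.05, 8 members (28.6%) were negative, beside 4.57% of all genes, and 21 were below -1 in both replicate numbers, beside 7.99% of all genes. The mean level over the 28 members was 6.30 and 7.88 on WT (mosaic) + IR, 8.89 and 9.57 on WT + IR, 9.48 and 9.66 on mp53 (mosaic) + IR, and 5.44 and 9.48 on mp53 + IR. Replicate 1 of mp53 + IR was the lowest of the 8 arrays and replicate 2 among the higher, and the list's median was -2.37 without mp53 + IR replicate 1 and -6.48 without mp53 + IR replicate 2. The probes detected numbered 15 and 22 of 28 on WT (mosaic) + IR, 27 and 28 on WT + IR, 28 and 28 on mp53 (mosaic) + IR, and 15 and 28 on mp53 + IR. In bulk RNA, fewer cells of a type and less RNA per cell cannot be told apart.

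Csf3r, through which granulocyte colony-stimulating factor acts, read 4.36 and 4.82 on WT (mosaic) + IR, 6.23 and 7.08 on WT + IR, 7.64 and 7.33 on mp53 (mosaic) + IR, and 4.71 and 6.91 on mp53 + IR. Its interaction was -3.74 (SE 1.03; -4.80 and -2.68). Irf8, the transcription factor of monocyte and dendritic cell fate, read 4.29 and 4.48, then 7.43 and 7.19, then 9.44 and 8.14, then 4.66 and 7.48 in the same order of groups. It was undetected on both WT (mosaic) + IR arrays, and the group means gave a bound of at least 35.5-fold lower. The fitted values were -7.91 and -3.37, and that of replicate number 2 was smaller in size than the bound. Mpo, the myeloperoxidase of granule precursors, had 6.70 and 12.49 on WT (mosaic) + IR, 12.80 and 13.45 on WT + IR, 12.94 and 13.08 on mp53 (mosaic) + IR, and 4.48 and 13.47 on mp53 + IR. Its interaction of -7.56 (SE 4.06) came from -14.57 in replicate number 1 and -0.56 in replicate number 2. S100a8, a calcium-binding protein of neutrophils, was -5.24 (SE 2.47; -8.96 and -1.52), and Lyz2, a lysozyme of macrophages and neutrophils, was -5.13 (SE 2.07; -6.95 and -3.32).

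Beside Irf8, the genes with the largest bounds on the negative side were also undetected on both WT (mosaic) + IR arrays. Ppp1r42, a regulatory subunit of protein phosphatase 1, had a bound of at least 37.3-fold lower (fitted -8.52 and -3.62). Sirpb1b, of the signal-regulatory protein family, had at least 33.7-fold lower (fitted -7.11 and -4.15), and Trpm2, a cation channel of phagocytes, at least 35.7-fold lower (fitted -7.24 and -3.95). Ppp1r42, Sirpb1b and Trpm2 were detected on 1 of the 2 mp53 + IR arrays.

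Progenitor, B lineage and erythroid markers were also mostly negative, while other lineages were mixed. Of 10 measured progenitor markers 8 were negative, beside 45.4% of all genes, and 6 (60%) were so at an unadjusted p under 0.05, beside 4.57%. The progenitor median was -2.97 (-3.66 and -1.32). That median was -1.88 without mp53 + IR replicate 1, -1.40 over probes detected on all 8 arrays and -0.30 with no filter on dim probes. Cd48, which the sort selected against, read 4.95 and 5.04 on WT (mosaic) + IR, 6.83 and 6.05 on WT + IR, 8.36 and 6.27 on mp53 (mosaic) + IR, and 4.67 and 5.96 on mp53 + IR. Its arrays weighted +1 lay below those weighted -1, and its interaction was -3.44 (SE 1.12; -5.56 and -1.32). Cd34, a sialomucin of progenitors, was positive at 1.75 (SE 0.78; 1.93 and 1.57). Mcpt8, a basophil protease, had -6.06 (SE 2.15; -9.21 and -2.91). Over 9 measured mast cell and basophil markers, however, 4 were positive and 5 negative, beside 54.6% and 45.4% of all genes. Their medians were 0.04 and 0.19 in replicate numbers 1 and 2. Among the positive ones, Kit (1.10) and Gata2 (2.21) are also on the stem cell list. Irf8 and Mpo are on both the progenitor list and the granulocyte and monocyte list, so these lists are not independent.

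In the B lineage 10 of 11 measured markers were negative, beside 45.4% of all genes. The median was -1.80 (-2.33 and -1.20), and -1.01 without mp53 (mosaic) + IR replicate 1. Il7r, through which lymphoid progenitors respond to interleukin-7, read 4.27 and 4.26 on WT (mosaic) + IR, 4.44 and 5.56 on WT + IR, 6.83 and 5.92 on mp53 (mosaic) + IR, and 4.23 and 4.9 on mp53 + IR. It was undetected on both WT (mosaic) + IR arrays and on mp53 + IR replicate 1, with a bound of at least 3.29-fold lower (fitted -2.77 and -2.32). Blnk, an adaptor of the B cell receptor, had a bound of at least 11.6-fold lower (fitted -4.72 and -3.70). The mean level of the 11 markers was 4.81 and 4.81 on WT (mosaic) + IR, 4.81 and 5.67 on WT + IR, 7.09 and 5.90 on mp53 (mosaic) + IR, and 4.94 and 5.42 on mp53 + IR, with mp53 (mosaic) + IR replicate 1 the highest of the 8 arrays.

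Erythroid markers had a median of -1.53, with -2.25 in replicate number 1 and -0.52 in replicate number 2. Of 19 measured members 16 were negative, beside 45.4% of all genes. Alas2, the red cell enzyme that begins heme synthesis, had -3.07 (SE 1.21; -4.39 and -1.74), and Slc4a1, the red cell anion exchanger, had -5.90 (SE 3.31; -10.97 and -0.83). Megakaryocyte markers were mixed, with 8 of 11 positive, beside 54.6% of all genes, and a median of 0.50 (0.55 and 0.36). That median turned to -0.46 with median scaling, to -0.40 with brightness as a covariate and to -0.15 without mp53 (mosaic) + IR replicate 2. It was 1.71 without mp53 + IR replicate 2. T and NK cell markers had a median of -0.63 (-0.89 and -0.38), which was 0.56 over probes detected on all 8 arrays and -0.25 without WT (mosaic) + IR replicate 1. Macrophage and dendritic cell markers had -0.62 (-1.38 and -0.11), which was 0.02 with no filter on dim probes, 0.08 over probes detected on all 8 arrays and -1.32 without mp53 + IR replicate 2. Of the 9 measured, 4 were positive and 5 negative, beside 54.6% and 45.4% of all genes. At an unadjusted limma p under 0.05, 3 (33.3%) were negative and 0 positive, beside 4.57% and 3.9% of all genes. In 3, Vcam1 and Mrc1 among them, the arrays weighted +1 lay below those weighted -1, beside 1.52% of all genes. Mrc1 had a bound of at least 2.53-fold lower (fitted -2.29 and -1.74).

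**Figure D5:**
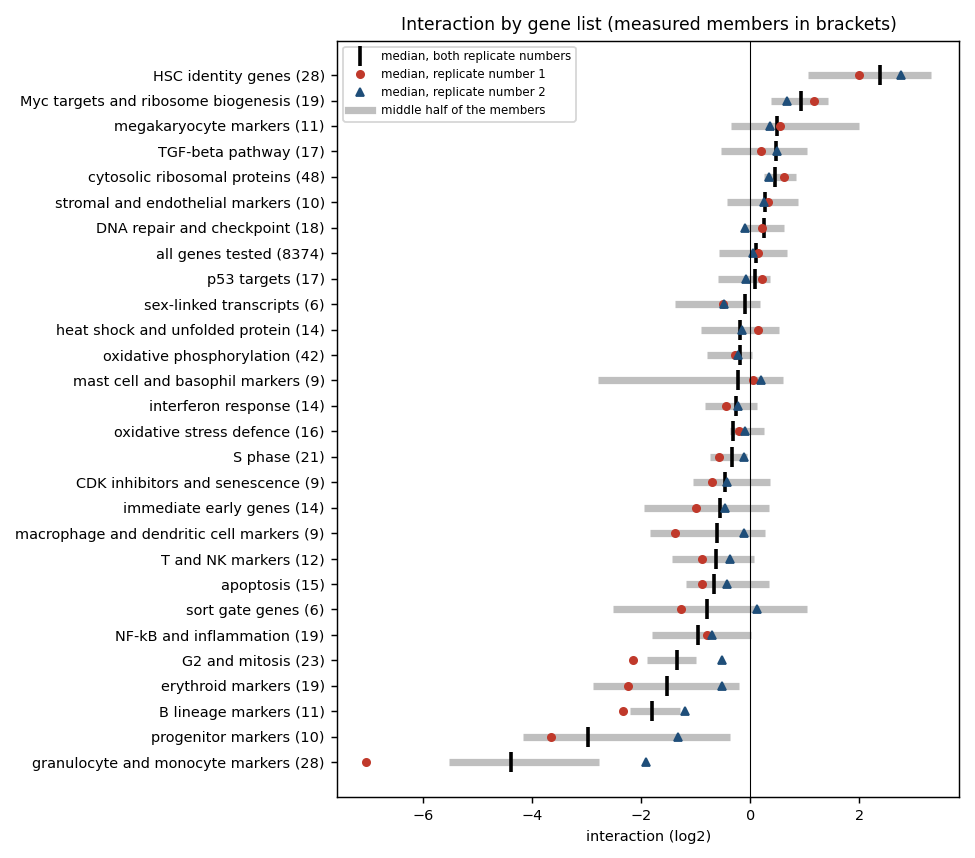
Interaction in log2 for 27 gene lists and all genes, with a black bar for the median of the fitted values, a circle for the median in replicate number 1, a triangle for that in replicate number 2, and a grey bar from the lower to the upper quartile of the members. HSC identity genes had the highest median, 2.38, and granulocyte and monocyte markers the lowest, -4.39, while p53 targets lay at 0.09 beside 0.11 for all genes.

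The p53 target genes showed no common direction. Of 17 measured targets 10 were positive and 7 negative, beside 54.6% and 45.4% of all genes. In both replicate numbers 4 were positive and 4 negative, beside 39.8% and 32.2% of all genes. The median was 0.09 (0.22 and -0.08). Its sign turned with median scaling (-0.90) and in 3 of the fits that leave out 1 array, to -0.20 without WT + IR replicate 1 at the lowest. Mdm2, the ubiquitin ligase that p53 induces and that degrades p53, read 10.37 and 10.21 on WT (mosaic) + IR, 10.03 and 10.50 on WT + IR, 9.83 and 10.05 on mp53 (mosaic) + IR, and 9.81 and 10.21 on mp53 + IR. The 8 arrays overlapped, and the interaction was 0.09 (SE 0.42, 95% interval -0.87 to 1.05; 0.32 and -0.14). Ccng1, cyclin G1, had 0.30 (SE 0.77, 95% interval -1.46 to 2.05; 0.87 and -0.27) by its brightest probe, whereas its other 2 kept probes gave -1.64 (-2.68 and -0.60) and -0.92 (-0.93 and -0.92). Tigar, a regulator of glycolysis that p53 induces in human cells, was the 1 target past an unadjusted p of 0.05, at -3.03 (SE 1.13; -4.02 and -2.03, limma adjusted p = 0.617). Apaf1, the scaffold of the apoptosome, had -2.40 (SE 1.33; -4.22 and -0.58).

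In the apoptosis list 10 of 15 measured genes were negative, beside 45.4% of all genes, with a median of -0.66 (-0.89 and -0.43). Fadd, the adaptor of death receptors, was 1.19 (SE 0.49; 1.13 and 1.26; -0.36 with median scaling), and Bcl2a1b, an anti-apoptotic Bcl2 relative, was -2.05 (SE 0.88; -2.53 and -1.57). Of 18 DNA repair and checkpoint genes 13 were positive, beside 54.6% of all genes, with a median of 0.26 that was -1.07 with median scaling. The replicate numbers differed in sign there, with medians of 0.21 and -0.11. In replicate number 2, 8 of 18 genes were positive, beside 4428 of all 8374 genes. Trp53bp1, which binds double-strand breaks, had 1.94 (SE 0.59; 1.39 and 2.48), and Xpc, which recognises lesions in nucleotide excision repair, had -3.32 (SE 1.60; -5.43 and -1.21).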

How the data were processed

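The authors deposited a linear, non-normalized intensity and a detection p-value per probe and array, in 1 table per replicate number, per the file headers; a deposited table of processed intensities served as an alternative. The sources used here do not name the scanner software or how the detection p-value was made. Values of the 11 repeated probes were averaged. neqc of limma 3.58.1 (R 4.3.3) corrected the background (normexp, offset 16), normalized the 12 arrays by quantiles and took log2. A probe was kept if both arrays of any of the 6 groups had a detection p-value under 0.05, which left 13512 of 46632 probes. Of these 10246 had 1 gene symbol in the platform annotation, and they represented 8374 genes. Where only 1 group passed this filter, its level had to be high.

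limma fitted 1 mean per group (6 residual degrees of freedom), and p-values of the interaction were adjusted by Benjamini-Hochberg over all kept probes. The fit was run on simulated data with known interactions. The simulated arrays varied independently, so this run does not cover the correlation between same-numbered arrays given below. A gene with a group undetected on both arrays has only a bound, computed on the group means and without the spread between replicates. For it, every undetected array with the weight of that group was set to the probe's value there or to the array's lowest detected value, whichever was higher. Of the 8374 genes, 6821 were measured in all 4 groups. Of 1542 genes with several kept probes, 634 had probes that differed in sign.

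Named genes were, per direction, the 10 with the smallest p among genes of 1 sign in both replicate numbers and detected in each of the 4 groups, the 4 with the largest bound, the 2 list members with the smallest p in each list, and a fixed set; other members were named from their lists after their values were seen. Members and lists were chosen with earlier results of these data known, and no set test was run. Some genes are on several lists. The alternatives were the replicate number as a block, median scaling, quantile normalization within replicate number, no background correction, an offset of 50, other filters, brightness as a covariate, the authors' processed table and leaving out each array. Every value column matched an array (0 did not). The promoter windows are those of RefSeq, assembly GRCm38.p6.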

Additional observations from a re-analysis of the deposited data

Results flagged for a closer look

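In 13 gene lists the difference mosaic minus non-mosaic ran one way in WT cells and the opposite way in mp53 cells, in both replicate numbers, as the median of that difference over the list's members. Taken from the mean over members instead, 16 lists did so, 12 of them among these 13, without the progenitor markers. The count asked for no minimum size, and some differences were very small. The mean of the S phase list in replicate 2, for example, was 7.78 on WT (mosaic) + IR and 7.79 on WT + IR. The share of all genes that ran opposite ways was not computed, and the difference itself was not tested. Positive list medians among these were 2.38 for HSC identity genes, 0.47 for the TGF-beta pathway and 0.50 for megakaryocyte markers. The negative list medians were -4.39 for granulocyte and monocyte markers, -2.97 for progenitor markers, -1.53 for erythroid markers, -1.35 for G2 and mitosis, -0.96 for NF-kB and inflammation, -0.80 for sort gate genes, -0.66 for apoptosis, -0.35 for S phase, -0.26 for the interferon response and -0.11 for sex-linked transcripts. The sort gate and sex-linked lists had 6 measured members each, and the sign of the list median changed in 2 of 24 alternatives for the sort gate genes and in 5 of 24 for the sex-linked transcripts. For the sort gate genes the median interaction also differed in sign between the replicate numbers, at -1.27 in number 1 and 0.12 in number 2.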

How the results depend on the processing

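The adjusted calls were 0 in all 23 alternatives that gave a count, with smallest limma adjusted p-values from 0.140 to 0.999. Of the named genes, 72 of 79 kept the sign of their interaction in every alternative, as did 12 of 27 list medians, and 21 list medians kept it in all 12 leave-one-out fits. With median scaling, under which the median of all genes was -0.83, 84 probes were above 1 log2 in both replicate numbers, 3758 were below -1, and 14 were positive at an unadjusted p under 0.05. Without background correction the counts by size were 396 positive and 554 negative, with an offset of 50 they were 427 and 557, and the authors' processed table gave 450 positive. Probes detected on all 8 arrays included 380 negative by size and 177 negative at an unadjusted p under 0.05. At that p, quantile normalization within replicate number gave 246 positive and 208 negative, the authors' processed values gave 233 and 219, and no filter 1205 and 1004. Leaving out 1 array at a time gave 207 to 701 positive and 193 to 1046 negative probes at an unadjusted p under 0.05. The lowest of both came without mp53 + IR replicate 1, and the highest came without an unirradiated mp53 array for positive probes and without mp53 + IR replicate 2 for negative ones. Other arrays that moved a count by over 1.5 times were mp53 + IR replicate 2 (694 positive without it), WT + IR replicate 2 (296 and 357), mp53 (mosaic) + IR replicate 1 (285 and 348) and replicate 2 (283 positive), and WT (mosaic) + IR replicate 1 (261 negative); leaving out the unirradiated arrays was chosen after seeing the data. Signs turned for Ccng1 (-1.30 with median scaling, -0.32 with brightness as a covariate, -0.43 to 1.02 in the leave-one-out fits, the lowest without WT (mosaic) + IR replicate 1) and Mdm2 (-1.56 with median scaling, -0.14 to 0.33 in the leave-one-out fits, with -0.14 without WT + IR replicate 1, -0.02 without mp53 (mosaic) + IR replicate 1, -0.11 without mp53 + IR replicate 2), and with median scaling for Fadd (-0.36), Gar1 (-0.32), Kit (-0.14), Psmb8 (-0.022) and Txnip (-0.094). The cause was not tested.

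Deviations of same-numbered arrays from their group means correlated at 0.502 to 0.640 over the 4 irradiated groups and at 0.0702 to 0.640 over the 6 groups. The numbers are those of the 2 deposited tables, and nothing in the labels pairs the samples. With the replicate number as a block the interactions were the same, 842 probes were positive and 1181 negative at an unadjusted p under 0.05, and limma called 0 (smallest adjusted p = 0.282). Depth was limited on dim probes: 282 genes had only a lower bound, 759 an upper bound and 512 none.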

Other observations

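Some gene groups outside the main description held single genes with large values. In the TGF-beta pathway, which restrains stem cell division, 12 of 17 measured genes were positive, beside 54.6% of all genes. The median was 0.47 (0.20 and 0.49 in replicate numbers 1 and 2). Tgfbr3, the co-receptor betaglycan, read 8.39 and 8.18 on WT (mosaic) + IR, 7.22 and 6.94 on WT + IR, 6.30 and 5.24 on mp53 (mosaic) + IR, and 8.03 and 6.37 on mp53 + IR, an interaction of 2.64 (SE 1.00; 2.91 and 2.37). Smad3, a signal transducer of the pathway, had 1.27 (SE 0.48; 1.24 and 1.30), whereas Skil, a corepressor of Smad proteins, was undetected on both WT (mosaic) + IR arrays and had a bound of at least 2.95-fold lower (fitted -2.53 and -1.41). The list's median was -0.30 with median scaling and -0.03 with brightness as a covariate, and 0.28 without mp53 + IR replicate 1 and 0.83 without mp53 (mosaic) + IR replicate 1.

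Among the inflammatory lists, 14 of 19 NF-kB genes were negative, beside 45.4% of all genes, with a median of -0.96 (-0.79 and -0.71). That median was -0.21 both with no filter on dim probes and over probes detected on all 8 arrays, and -0.55 without mp53 + IR replicate 1. Myd88, the adaptor of Toll-like receptors, had -1.92 (SE 0.74; -2.90 and -0.95), and Il1b, an inflammatory cytokine, had a bound of at least 14.4-fold lower (fitted -4.84 and -4.08). Klf4, a transcription factor of the immediate early list, was undetected on both WT (mosaic) + IR arrays, with a bound of at least 13.2-fold lower and no overlap between the weights (fitted -6.14 and -2.86). Of the interferon response genes 9 of 14 were negative, beside 45.4% of all genes. Their median was -0.26 (-0.45 and -0.24), and -0.51 without mp53 + IR replicate 2. There Rsad2, the antiviral protein viperin, had -2.03 (SE 0.73; -2.73 and -1.33) and Psmb8, an immunoproteasome subunit, had 1.41 (SE 0.51; 1.96 and 0.87; -0.02 with median scaling).

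The highest fitted interaction of the 8374 genes was that of Myl10, a myosin light chain gene, chosen here after its value was seen. It read 10.64 and 9.59 on WT (mosaic) + IR, 6.36 and 5.77 on WT + IR, 6.12 and 5.52 on mp53 (mosaic) + IR, and 10.33 and 7.02 on mp53 + IR, without overlap between the weights. The Myl10 interaction was 6.90 (SE 2.05; 8.49 and 5.31 in replicate numbers 1 and 2, limma adjusted p = 0.609).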
